A study of Rattus norvegicus with 8 samples.

Results

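Coagulation, complement, lipoprotein and carrier proteins are the main export products of the hepatocyte, and 49 genes that encode them were listed and followed in perfused rat liver. A gene was taken where a probe set of the array carried its symbol alone, and where a gene had several probe sets the brightest by its mean on the 8 arrays was used. Of the 49 genes, 46 were measured in this way, among 14506 genes with a single symbol. They comprise 8 carriers, 9 apolipoproteins, 19 coagulation genes and 10 complement genes. The other 3 genes, F9, C5 and Cfb, are not analysed here, and the probe set annotated to Cfb also carries the symbol of C2.

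The livers came from male Wistar rats, an outbred strain, aged 6 to 10 weeks per the series description. An isolated liver was perfused with Krebs-Henseleit buffer, a bicarbonate-buffered salt solution, which removes the organ from the blood and hormones of the animal. The buffer was normoosmotic (305 mosm/L) for 4 samples and hypoosmotic (225 mosm/L) for the other 4, each labelled with a time of 120 min. A hypoosmotic buffer draws water into cells and swells them. Each sample was total RNA of perfused liver on 1 array. The comparison asks which transcripts differ between the buffers. No label ties the samples to separate animals, and the p-values therefore cover only the spread among these 8 arrays, part of which may be technical.

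Hepatocytes secrete these proteins continuously. Albumin, transferrin and their like carry hormones, metals and lipids in plasma, and apolipoproteins give lipoprotein particles their structure and address. Coagulation proteins circulate mostly as inactive precursors of proteases, held in check by inhibitors of the serpin family, and end in the conversion of fibrinogen to fibrin. Complement is a second protease cascade, started on microbes by antibody, by sugar-binding lectins or by slow turnover of C3, and it ends in a pore made of C5b to C9. In inflammation the liver raises some of these messages and lowers others, which is known as the acute phase response.

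Of the 46 genes, 0 passed the test between the buffers in either direction (limma, adjusted p under 0.05), where 287 of all genes, or 1.98%, did, with 0.558% higher and 1.42% lower. At an unadjusted p under 0.05 the count was 1 of 46, against 14.6% of all genes. The log2 changes, hypoosmotic minus normoosmotic, lay between −0.20 for F5 and 0.24 for Mbl2, so that each of the 46 estimates was within 1.2-fold, as were those of 80.9% of all genes. The median change was −0.01 over the 46 genes and 0.04 over all genes, with 21 genes above 0 and 25 below. In whole-liver RNA, fewer cells of a type and less RNA per cell cannot be told apart.

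The intervals show how large a difference in array signal these data leave room for, if the arrays of a group are independent samples. Like the p-values, they cover only the spread among these arrays. The 95% interval of the change lay within 2-fold in both directions for all 46 genes, against 97.7% of all genes. It lay within 1.5-fold for 45 of 46, against 81.4% of all genes, and the exception was Mbl2, whose interval ran from 0.87-fold to 1.61-fold. The interval reached 0.21 log2 units to either side of the estimate for Apob and 0.45 for Mbl2, the lowest and highest of the 46. The residual SD between arrays of one group had a median of 0.11 for the 46 genes and 0.19 for all genes.

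**Figure D1:**
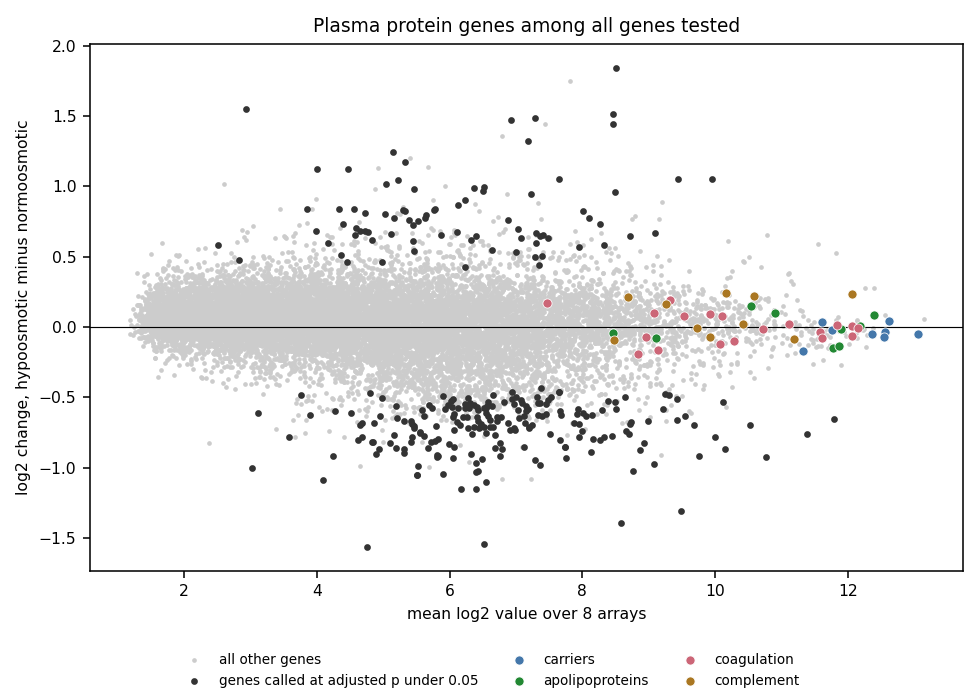
Each point is a gene, with its mean log2 value over the 8 arrays on the x axis and its log2 change on the y axis. The coloured points, one colour for each class, are the 46 plasma protein genes, and they lie between −0.20 and 0.24 while called genes (dark) lie above and below them.

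The 46 genes lie in the bright part of the array, with mean log2 values from 7.47 to 13.05. Of the 1840 genes at least as bright as the dimmest of them, 71 or 3.86% were called, 19.9% had an unadjusted p under 0.05, and 78.3% had an interval within 1.5-fold. The median residual SD of these 1840 genes was 0.16, against 0.11 for the 46 genes. At the upper end, Alb read between 12.94 and 13.08, where the highest value on an array was between 13.06 and 13.26 and 0 to 2 probe sets read above it. Differences at the top of the range may be compressed by saturation, which was not tested.

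Among arrays, hypoosmotic replicate 4 read high for these genes. It was the single highest of its group for 38 of 46 genes, or 82.6%, where it was so for 28.4% of all genes and 44.3% of the bright ones. Hypoosmotic replicate 1 was the single lowest for 23 of 46, or 50%, against 24.6% of all genes and 29.7% of the bright ones. The offsets were small, with a mean over the 46 genes of 10.85 on hypoosmotic replicate 4 and between 10.63 and 10.71 on the other hypoosmotic arrays, against 10.66 to 10.78 on the normoosmotic ones. After quantile normalization hypoosmotic replicate 4 was the single highest for 12 of 46 and hypoosmotic replicate 3 for 24. Without hypoosmotic replicate 4 again 0 of 46 genes passed, and the median change was −0.05. Array medians over all probe sets lay between 4.05 and 4.16. Of 49 measured markers of other liver and blood cell types 0 were called by limma, against 1.98% of all genes, with log2 changes from −0.85 to 0.36. Of 10 hepatocyte markers 1 was called, Tat, an enzyme of tyrosine breakdown. Alb, Apoa1, Ttr, Tf and Serpina1 are among these 10 markers and also among the 46 genes, so the hepatocyte list is no separate set.

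**Figure D2:**
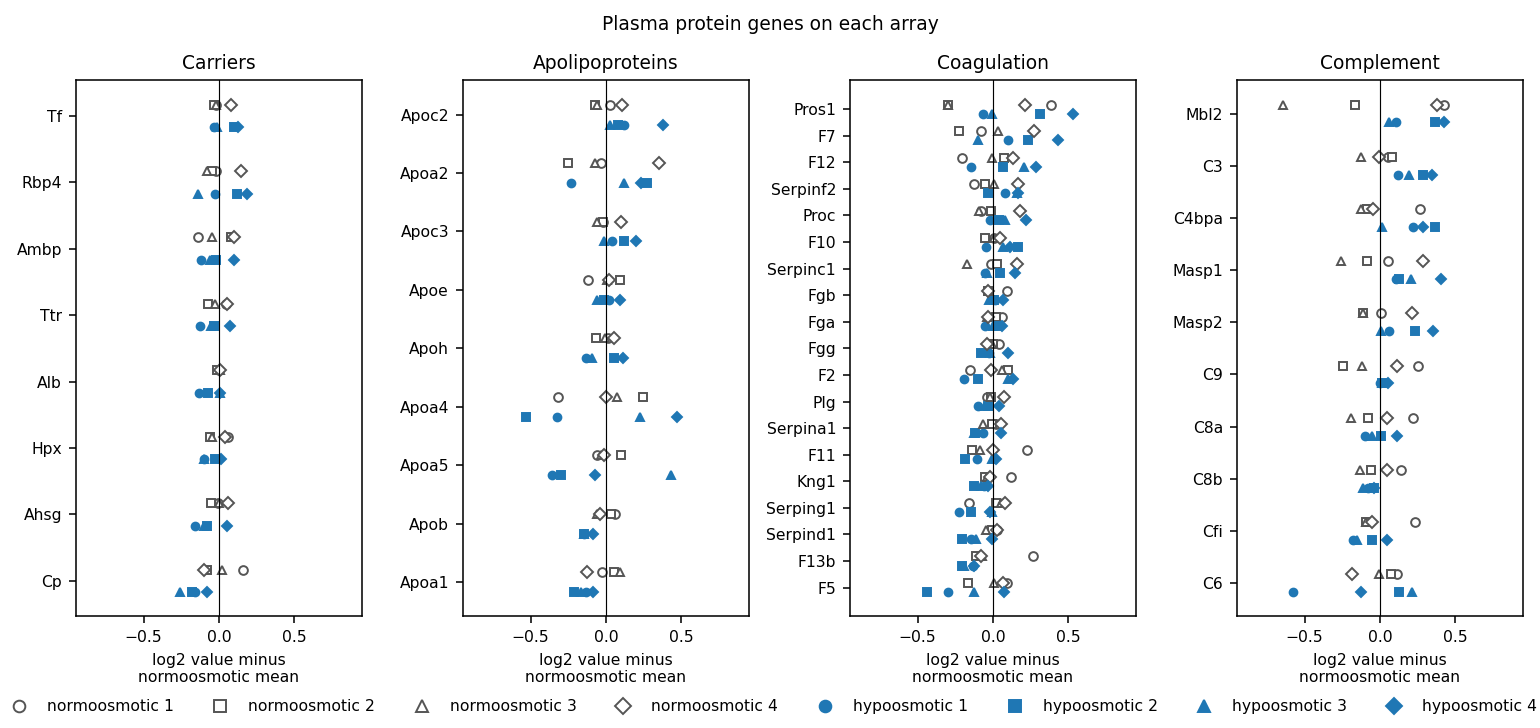
Each row is a gene and each symbol an array, placed by its log2 value minus the gene's normoosmotic mean on the x axis, with open symbols for normoosmotic and filled symbols for hypoosmotic arrays. The filled diamonds (hypoosmotic replicate 4) are the rightmost of the filled symbols for 38 of 46 genes, and the groups overlap for all genes except C3, Apob and F13b.

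The carriers had log2 changes between −0.17 and 0.05 with a median of −0.04, and 6 of 8 were below 0. Their mean log2 value was 12.25 ± 0.04 in normoosmotic and 12.21 ± 0.08 in hypoosmotic samples (SD, n = 4 each). Alb, the main carrier and osmotic protein of plasma, read 13.07, 13.06, 13.08 and 13.08 in normoosmotic replicates 1 to 4. In hypoosmotic replicates 1 to 4 it read 12.94, 13, 13.08 and 13.08. The groups overlapped, with hypoosmotic replicates 1 and 2 below the rest, and the change was −0.05 (95% interval −0.26 to 0.17).

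Cp, the copper-carrying ferroxidase ceruloplasmin, had the smallest p of the carriers. It read 11.56, 11.32, 11.42 and 11.30 in normoosmotic samples and 11.24, 11.22, 11.14 and 11.32 in hypoosmotic ones. Normoosmotic replicate 1 was the highest, and hypoosmotic replicate 4 equalled normoosmotic replicate 2. The change was −0.17 ± 0.11 (SE; limma, adjusted p = 0.529). Ahsg, which encodes the mineral-binding glycoprotein fetuin-A, read 12.57, 12.53, 12.58 and 12.64 in normoosmotic and 12.42, 12.50, 12.48 and 12.63 in hypoosmotic samples, a change of −0.07. Hypoosmotic replicates 1 to 3 lay below all normoosmotic values and replicate 4 among them. Tf, the iron carrier transferrin, had a change of 0.05, and Ttr and Rbp4, which together carry thyroid hormone and retinol, had changes of −0.04 and 0.04. Hpx, the haem scavenger hemopexin, and Ambp, the precursor of alpha-1-microglobulin and bikunin, had changes of −0.05 and −0.02.

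Apolipoprotein genes lay on both sides of 0, between −0.15 for Apoa1 and 0.15 for Apoc2, with a median of −0.02, 4 above 0 and 5 below. Their mean log2 value was 11.02 ± 0.04 in normoosmotic and 11.01 ± 0.12 in hypoosmotic samples (SD, n = 4 each). Apoa1, the structural protein of high-density lipoprotein, read 11.82, 11.90, 11.94 and 11.72 in normoosmotic and 11.71, 11.63, 11.68 and 11.76 in hypoosmotic replicates 1 to 4. Normoosmotic replicate 4 lay among the hypoosmotic values and the other 3 above them, and the change was −0.15 ± 0.10 (SE; limma, adjusted p = 0.572).

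Apob, the structural protein of very-low-density lipoprotein, read 12, 11.97, 11.88 and 11.90 in normoosmotic and 11.79, 11.79, 11.79 and 11.85 in hypoosmotic samples. All 4 hypoosmotic values lay below the 4 normoosmotic ones. The change was −0.13 (95% interval −0.35 to 0.08; limma, adjusted p = 0.609). Groups lay apart for 3 of the 46 genes, 1 higher and 2 lower, against 8.27% of all genes (3.21% higher, 5.05% lower) and 13.5% of the bright genes.

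The regulators of triglyceride breakdown gave changes of both signs. Apoc2, the activator of lipoprotein lipase, had a change of 0.15 and Apoc3, which inhibits the clearance of triglyceride-rich particles, one of 0.09. Apoa5, which promotes that clearance, read 8.79, 8.85, 9.58 and 9.08 in hypoosmotic samples, a range of 0.79, where the normoosmotic ones read 9.09, 9.25, 9.12 and 9.14. Hypoosmotic replicate 3 was the highest of all 8 arrays, and the change was −0.08 (95% interval −0.42 to 0.27). Apoa4, a lipoprotein component also made by the intestine, had a range of 1.0 over the hypoosmotic samples, at 8.15, 7.95, 8.70 and 8.95. Its normoosmotic values of 8.16, 8.72, 8.55 and 8.48 lay within that range, and the change was −0.04 (−0.48 to 0.40). Apoa2, Apoe and Apoh had changes of 0.10, 0.01 and −0.02. Apoe is the ligand for uptake of remnants, and Apoh is a phospholipid-binding plasma protein.

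Neighbouring apolipoprotein genes had changes of like and of unlike sign. Apoa1, Apoc3, Apoa4 and Apoa5, which follow one another with 0 protein-coding genes between them in the RefSeq annotation of GRCr8, had changes of −0.15, 0.09, −0.04 and −0.08. Apoc2 and Apoe, with 2 protein-coding genes between them, had 0.15 and 0.01.

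**Figure D3:**
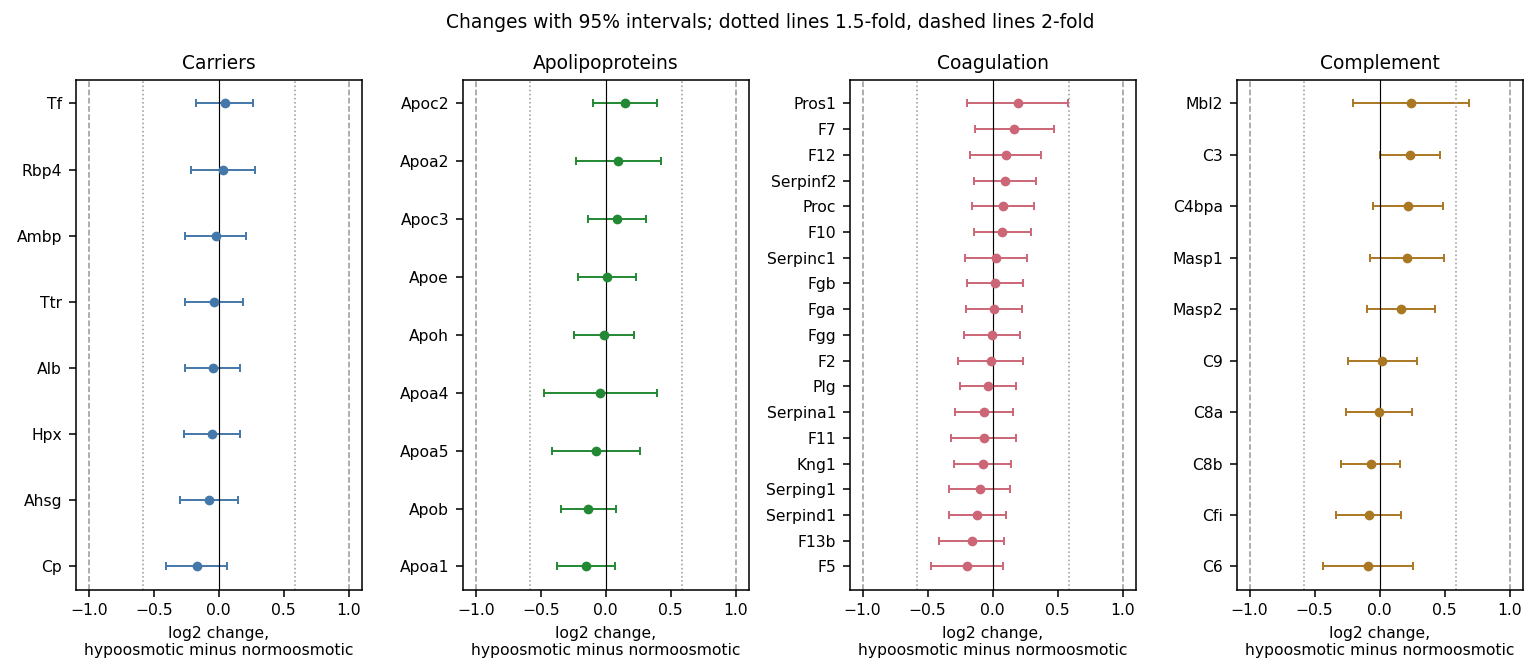
Points are log2 changes, hypoosmotic minus normoosmotic, and bars are 95% intervals from limma with 4 arrays per group. Every interval lies inside the dashed 2-fold lines, only that of Mbl2 crosses a dotted 1.5-fold line, and only that of C3 does not include 0.

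The coagulation genes had a median change of −0.01, with 9 above 0 and 10 below, and a mean log2 value of 10.31 ± 0.06 in normoosmotic and 10.30 ± 0.09 in hypoosmotic samples (SD, n = 4 each). The 3 chains of fibrinogen, the precursor of the fibrin clot, lie next to one another in the genome and had changes of 0.01 for Fga, 0.02 for Fgb and −0.01 for Fgg. Fgb read 11.92, 11.79, 11.80 and 11.79 in normoosmotic and 11.84, 11.83, 11.80 and 11.89 in hypoosmotic samples. Normoosmotic replicate 1 was the highest and the other 7 arrays lay between 11.79 and 11.89. The 95% interval for Fgb was 0.87-fold to 1.17-fold.

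F13b, the carrier subunit of the factor that cross-links fibrin, read 9.48, 9.10, 9.14 and 9.13 in normoosmotic and 9.08, 9.01, 9.02 and 9.09 in hypoosmotic replicates 1 to 4. The hypoosmotic values all lay below the normoosmotic ones, by 0.01 at the nearest, and normoosmotic replicate 1 stood above the other 3. The change was −0.16 ± 0.12 (SE; limma, adjusted p = 0.584), and without normoosmotic replicate 1 it was −0.07.

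The vitamin K dependent genes, whose products need a vitamin K dependent carboxylation to bind membranes, had changes of −0.02 for F2 (prothrombin), 0.08 for F10, 0.17 for F7, 0.08 for Proc (protein C) and 0.19 for Pros1. F7, which starts coagulation with tissue factor, read 7.31, 7.16, 7.42 and 7.66 in normoosmotic and 7.49, 7.62, 7.29 and 7.82 in hypoosmotic samples, and the groups overlapped. Pros1, the cofactor of protein C, read 9.61, 8.93, 8.93 and 9.44 in normoosmotic and 9.16, 9.54, 9.22 and 9.76 in hypoosmotic samples. Within each group a pair of arrays was high and a pair low, normoosmotic replicates 1 and 4 against 2 and 3 and hypoosmotic replicates 2 and 4 against 1 and 3. The change of Pros1 was 0.19 (95% interval −0.20 to 0.58; limma, adjusted p = 0.695).

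Of the other coagulation factors, F5, the cofactor of factor X in the making of thrombin, had the lowest change of the 46 genes. It read 9.03, 8.77, 8.94 and 9.0 in normoosmotic and 8.64, 8.50, 8.81 and 9.01 in hypoosmotic samples. Hypoosmotic replicates 1 and 2 lay below all normoosmotic values and replicates 3 and 4 among them, and the change was −0.20 ± 0.13 (SE; limma, adjusted p = 0.546). Without hypoosmotic replicate 4 it was −0.29 (adjusted p = 0.278). F12, which starts the contact pathway, read 8.82, 9.10, 9.02 and 9.16 in normoosmotic and 8.88, 9.09, 9.23 and 9.31 in hypoosmotic samples, a change of 0.10, and the groups overlapped. F11, the next protease of that pathway, and Plg, the precursor of the clot-dissolving protease plasmin, had changes of −0.07 and −0.04. Kng1, the kininogen that releases bradykinin, had a change of −0.08, and a further probe set of it had −0.11. Rat liver expresses closely related kininogen genes, so these values may include signal from them, which was not tested.

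The inhibitors had changes of −0.07 for Serpina1 (alpha-1-antitrypsin), 0.03 for Serpinc1 (antithrombin), −0.12 for Serpind1 (heparin cofactor II), 0.09 for Serpinf2 (alpha-2-antiplasmin) and −0.10 for Serping1 (the inhibitor of C1 esterase and kallikrein). Serpind1 read 10.16, 10.13, 10.09 and 10.16 in normoosmotic and 9.99, 9.93, 10.02 and 10.13 in hypoosmotic samples. Hypoosmotic replicate 4 was within the normoosmotic range and the other 3 were below it. Serping1 read 10.17, 10.35, 10.38 and 10.41 in normoosmotic and 10.10, 10.18, 10.32 and 10.31 in hypoosmotic samples, and the groups overlapped.

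The complement genes had the highest median change of the 4 classes, 0.09, with a range from −0.09 to 0.24. Of the 10 genes 6 were above 0, where 8507 of all 14506 genes were. By limma 0 of 10 were called, against 1.98% of all genes. The mean log2 value of the complement genes was 10.01 ± 0.16 in normoosmotic and 10.09 ± 0.10 in hypoosmotic samples (SD, n = 4 each), a difference smaller than the spread within a group. The class mean read 10.18, 9.93, 9.83 and 10.09 in normoosmotic and 9.98, 10.15, 10.05 and 10.19 in hypoosmotic replicates 1 to 4, and the groups overlapped.

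**Figure D4:**
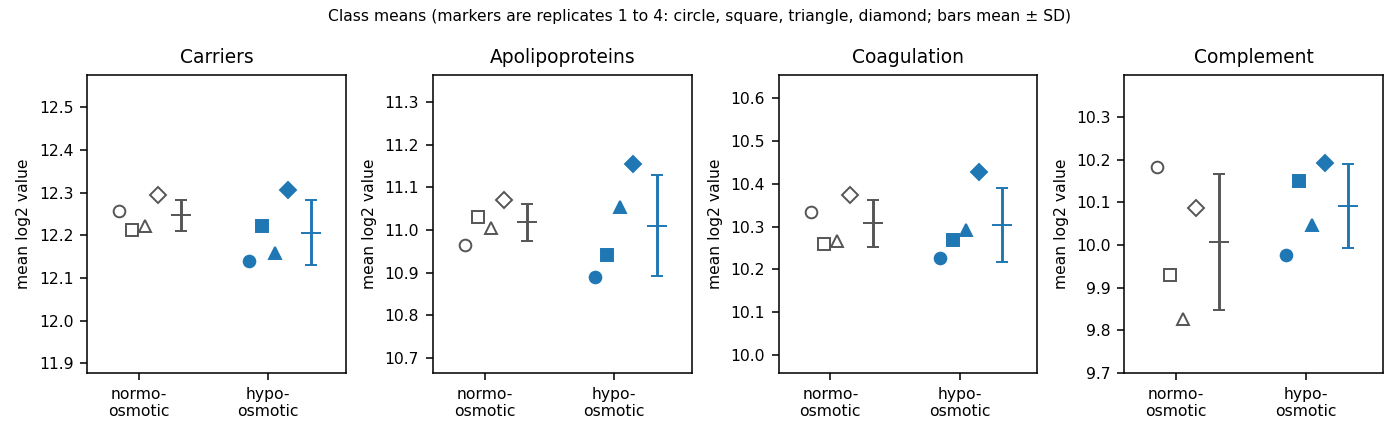
Each symbol is the mean log2 value over the genes of a class on 1 array, and bars are mean ± SD of the 4 arrays of a group. The y axes differ in level but span the same range, the groups overlap in each of the 4 classes, and the complement means spread most within the normoosmotic group, from 9.83 to 10.18.

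C3, the component on which all routes of complement activation meet, read 12, 12.03, 11.82 and 11.94 in normoosmotic and 12.07, 12.23, 12.14 and 12.29 in hypoosmotic samples. The 4 hypoosmotic values lay above the 4 normoosmotic ones, by 0.04 at the nearest. Its change of 0.24 ± 0.11 (SE), or 1.18-fold with a 95% interval of 1.003 to 1.38, had the smallest p of the 46 genes, 0.047, and an adjusted p of 0.335 over all genes (limma). The adjusted p lay between 0.174 and 0.616 over 16 alternative fits.

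The components of the terminal pore had changes closer to 0. C6 had a change of −0.09, C8a one of −0.01, C8b one of −0.07 and C9 one of 0.02. C8b read 10.10, 9.90, 9.83 and 10.01 in normoosmotic and 9.88, 9.92, 9.85 and 9.92 in hypoosmotic samples, and the hypoosmotic values fell within the normoosmotic range. C9, the last component to join the pore, ranged from 10.16 to 10.66 in normoosmotic but only from 10.41 to 10.46 in hypoosmotic samples. C6 showed the opposite, from 8.34 to 8.64 in normoosmotic and from 7.95 to 8.74 in hypoosmotic samples.

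The lectin pathway recognises sugars on microbes through mannose-binding lectin, which brings the proteases MASP-1 and MASP-2 to the surface. The 3 of its genes that are among the 46 had changes of 0.24 for Mbl2, 0.21 for Masp1 and 0.16 for Masp2. Masp1 read 8.63, 8.49, 8.32 and 8.86 in normoosmotic and 8.68, 8.70, 8.78 and 8.98 in hypoosmotic samples. Normoosmotic replicate 4 lay above 3 of the hypoosmotic values, so the groups overlapped, and the change had a standard error of 0.13 (limma, adjusted p = 0.527).

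Mbl2 had the widest spread of the 46 genes, at 10.47, 9.88, 9.40 and 10.42 in normoosmotic and 10.15, 10.41, 10.10 and 10.47 in hypoosmotic samples. Normoosmotic replicates 1 and 4 were as high as the highest hypoosmotic values and normoosmotic replicates 2 and 3 were below all of them. The range was 1.07 in normoosmotic and 0.37 in hypoosmotic samples, and without normoosmotic replicate 3 the change was 0.03. The arrays on which Mbl2 was high were those on which Pros1 was high. The mean over the 46 genes was also higher on normoosmotic replicates 1 and 4 (10.76 and 10.78) than on replicates 2 and 3 (10.68 and 10.66). Among the hypoosmotic arrays that mean was highest on replicate 4 (10.85), with replicates 2 and 3 both at 10.71 and replicate 1 at 10.63.

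Of the regulators, C4bpa, the chain of the protein that binds and inactivates C4b, read 10.74, 10.39, 10.35 and 10.43 in normoosmotic and 10.70, 10.84, 10.49 and 10.76 in hypoosmotic samples. Normoosmotic replicate 1 stood among the hypoosmotic values, and the change was 0.22 ± 0.13 (SE; limma, adjusted p = 0.469). Without normoosmotic replicate 1 it was 0.31 (adjusted p = 0.325). Cfi, the protease that cuts C3b and C4b, had a change of −0.08.

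**Figure D5:**
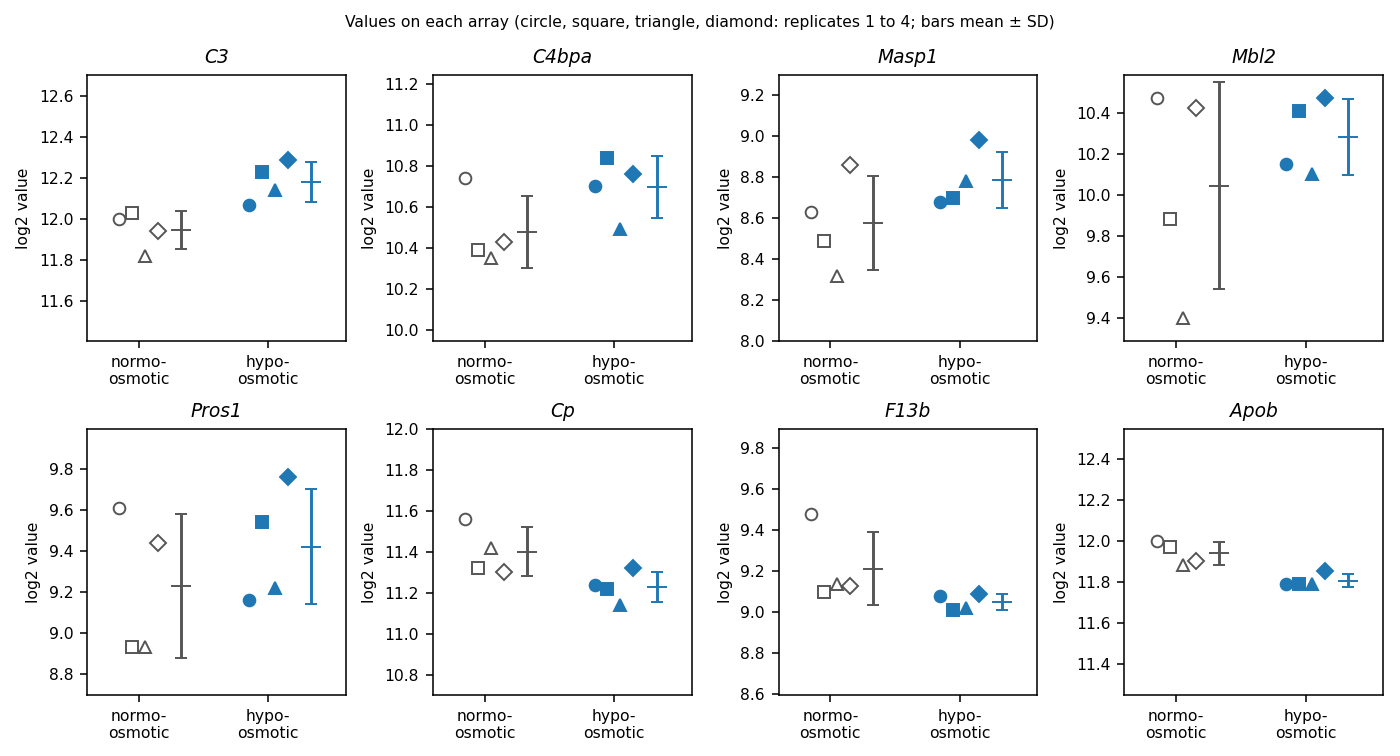
Log2 values on each array for 8 genes, with bars for mean ± SD (n = 4). Each panel spans the same range of log2 units, the groups lie apart for C3, F13b and Apob, and Mbl2 and Pros1 spread most within the normoosmotic group.

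Members known to rise or to fall in the acute phase were also set side by side. The 10 measured that are known to rise (Fga, Fgb, Fgg, C3, Cp, Hpx, Serpina1, Serping1, C4bpa and C9) had a median change of 0.00, with 5 above 0 and 5 below. The 6 whose products fall in the acute phase (Alb, Ttr, Tf, Rbp4, Ahsg and Apoa1) had a median of −0.04. Of other acute phase genes on the same arrays, Lcn2, an iron-siderophore binding protein, read 8.01, 7.76, 7.65 and 7.36 in normoosmotic and 8.71, 9.26, 9.23 and 9.65 in hypoosmotic samples and rose by 1.52 ± 0.19 (SE; limma, adjusted p = 0.00248). Orm1, which encodes alpha-1-acid glycoprotein, had a change of 0.50 (adjusted p = 0.122), from 9.93 to 10.41 in normoosmotic and from 10.50 to 11.13 in hypoosmotic samples. Other acute phase genes of that list, named after their values were seen, did not pass the test. Among them were the protease inhibitor genes A2m at 0.64 (limma, adjusted p = 0.229) and Serpina3n at 0.28 (0.307). The haemoglobin-binding haptoglobin gene Hp had a change of 0.07, and the inter-alpha-trypsin inhibitor genes Itih3 and Itih4 had −0.08 and −0.04.

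Further genes of the same pathways were taken as lists. The lists were chosen with earlier results of these data known, so their counts are descriptions and no test of the pathways. Of 85 measured further genes, 3 were called, all higher, against 0.558% of all genes called higher and 1.98% called in either direction. At an unadjusted p under 0.05 the count was 10 of 85, against 14.6% of all genes, and the median change of the 85 was 0.07. Of 17 lipoprotein genes 2 were called and 3 had an unadjusted p under 0.05. Angptl4, an inhibitor of lipoprotein lipase, read 7.33, 7.57, 7.93 and 8.11 in normoosmotic and 9.0, 9.14, 9.26 and 9.31 in hypoosmotic samples, a rise of 1.44 ± 0.16 (SE; limma, adjusted p = 0.00159). Lrp1, a receptor for lipoprotein remnants and protease complexes, ranged from 7.48 to 7.96 in normoosmotic and from 8.09 to 8.46 in hypoosmotic samples and rose by 0.57 ± 0.13 (adjusted p = 0.0444). The call of Lrp1 was kept in 6 of 16 alternative fits, with adjusted p-values up to 0.146, while its change lay between 0.50 and 0.67 in all 16.

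Over all genes limma called 1.98%, and 14.6% had an unadjusted p under 0.05, the shares beside which the other 3 lists are set. Of 22 carriers and secreted proteins Lcn2 was the 1 called, and 4 had an unadjusted p under 0.05. Of 25 coagulation and fibrinolysis genes 0 were called by limma and 2 had an unadjusted p under 0.05. These were Thbd (thrombomodulin, the thrombin receptor of endothelium), with a change of 0.32 and an adjusted p of 0.177, and the plasminogen activator gene Plau, with a change of 0.57 and an adjusted p of 0.19. Of 21 complement genes 0 were called and 1 had an unadjusted p under 0.05, Cd55, which protects host cells from complement, with a change of 0.47 (adjusted p = 0.161). C3ar1, the receptor for the C3a fragment, had a change of 0.41 (adjusted p = 0.426). Thbd and Cd55 were dim, with mean log2 values of 3.92 and 3.32.

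The promoters of these genes are classic objects for liver transcription factors, so the 250 bases before the RefSeq start (GRCr8) were searched for short motifs. Of the 49 genes, 40 had an entry. TTNNGCAA, a C/EBP-like motif, was found on either strand in 40% of the 40 promoters and in 9.22% of 33469 promoters of all genes. GTTAAT, one arm of the HNF1 site, was found on either strand in 27.5% and 6.45%. TTCNNNGAA, a STAT-like motif that reads the same on both strands, was found in 17.5% and 7.67%, and TATAAA, on the strand of the gene, in 15% and 8.06%. CAAAGTCCA, an HNF4-like motif, was found on either strand in 0 of 40, and in 0.338% of all promoters. Of the 38 measured genes with an entry, the 15 that hold the C/EBP-like motif had a median change of −0.01, as did the 10 with the HNF1 arm, while the genes without each motif had medians of −0.02 and −0.01.

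The 150 bases before the start, 5′ to 3′ on the gene's strand, are shown for C3 and F13b, whose groups lay apart, and for Alb and Fgb as the main carrier and a fibrinogen chain. Apob, whose groups also lay apart, had no promoter entry and is not shown. Capitals mark matches to the motifs above. The windows lie at chr9:2201340-2201489 on the minus strand for C3, chr13:53681489-53681638 on the plus strand for F13b, chr14:17906980-17907129 on the minus strand for Alb and chr2:170700876-170701025 on the minus strand for Fgb, all in GRCr8.
C3: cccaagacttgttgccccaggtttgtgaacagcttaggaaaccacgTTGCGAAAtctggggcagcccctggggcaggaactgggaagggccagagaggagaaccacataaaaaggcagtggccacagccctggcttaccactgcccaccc
F13b: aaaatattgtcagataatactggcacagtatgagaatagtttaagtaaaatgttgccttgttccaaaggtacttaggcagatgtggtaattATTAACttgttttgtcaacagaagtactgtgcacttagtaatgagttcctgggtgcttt
Alb: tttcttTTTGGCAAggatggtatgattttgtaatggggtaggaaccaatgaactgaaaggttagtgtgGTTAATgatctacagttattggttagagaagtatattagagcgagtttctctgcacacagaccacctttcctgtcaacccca
Fgb: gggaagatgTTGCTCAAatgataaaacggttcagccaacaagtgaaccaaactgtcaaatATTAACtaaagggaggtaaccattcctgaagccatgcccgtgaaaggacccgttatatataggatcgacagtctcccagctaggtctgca
The C/EBP-like match begins 104 bases before the start in C3, 144 in Alb and 141 in Fgb, and the HNF1 arm begins 59 bases before it in F13b, 82 in Alb and 90 in Fgb. Alb and Fgb hold both motifs, C3 holds the first and F13b the second, and none of these 4 genes passed the test between the buffers. A match describes these letters and shows no binding.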

How the data were processed

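Trizol-extracted total RNA was labelled with biotin for 1-colour Affymetrix arrays, per the labels' protocols. Per the submitters' processing notes, Transcriptome Analysis Console 4.0 was used. For summarisation, background correction and normalization, no method is given in the sources used here. Deposited was a table of the authors' log2 expression values, 1 column for each of 8 arrays and 27596 probe sets, used as they stand. The log2 scale was read from the range of the values. No detection call was used. Precision is limited by having 4 arrays in a group.

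Of the probe sets, 15310 carried a single gene symbol in the platform annotation, 323 carried more, and 11963 stay unnamed. Symbols were updated by gene ID through RefSeq (GRCr8), which matched 15279. Groups were compared with limma 3.58.1 in R 4.3.3 (lmFit and eBayes, two-sided, with no covariate). The p-values were adjusted by Benjamini-Hochberg over 14506 genes, and no gene was removed for low signal. The test was checked on simulated data of 4 arrays against 4. It called 87.6% of the genes given a 2-fold change and 29.4% of those given a change below 1.5-fold, and 4.91% of its calls were false.

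The members and lists were chosen with earlier results of these data known. Values on every array are given for the 2 members with the smallest p in each of 8 role subclasses, for the 3 with the largest range within a group and for some further members, chosen after their values were seen (Alb, as the main carrier, among them). From the lists of further genes, called ones and the 2 with the smallest p are named. The motifs and the 4 promoters shown were also chosen after values were seen. Alternatives were other normalizations, priors and filters, array weights, a replicate block, other probe-set rules, other thresholds and leaving out each array.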

Additional observations from a re-analysis of the deposited data

Results flagged for a closer look

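In groups of 4 arrays, an array was set apart where its gap to the nearest of the others passed Dixon's 95% critical value as a share of the group's range. This was so for 6 of 108 groups, and chance gives about 1 in 20. Normoosmotic replicate 1 was the high array for F13b at 9.48 (the other 3 from 9.10 to 9.14), for Fgb at 11.92 (11.79 to 11.80), for Cfi at 11.46 (11.14 to 11.18) and for Thbd at 3.86 (3.73 to 3.74). Normoosmotic replicate 4 was the high array for Tf at 12.67 (12.56 to 12.57). Hypoosmotic replicate 4 was the high array for Apob at 11.85, where the other 3 all read 11.79. The deposited values have 2 decimals, so a narrow group can be set apart by a few hundredths of a log2 unit.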

How the results depend on the processing

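The count of 0 genes called among the 46 held in all 16 alternative fits and at adjusted p under 0.10 and 0.01, and the smallest adjusted p of any of them was 0.174 (C3, trended and robust prior). At an unadjusted p under 0.05 each alternative fit gave 0 or 1 of the 46, and the gene was C3, C4bpa, Masp1 or F5. All 46 intervals stayed within 2-fold in each fit, and 43 to 46 within 1.5-fold. Leaving out each array, the median change lay between −0.05 and 0.02 over the 46 genes, between −0.07 and −0.01 for carriers, −0.06 and 0.03 for apolipoproteins, −0.04 and 0.02 for coagulation and 0.00 and 0.14 for complement. After quantile normalization the medians were −0.01, 0.01, −0.02 and 0.11 for these 4 classes, and after subtraction of array medians −0.08, −0.06, −0.05 and 0.05.

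The count over the whole array was less stable, at 81 to 365 when an array was left out (117 and 108 on removal of normoosmotic replicates 1 and 3, and 155, 81 and 156 on removal of hypoosmotic replicates 1, 2 and 3), 601 at an adjusted p under 0.10 and 68 under 0.01. The cause was not tested, beyond the fewer arrays or the other threshold. With the replicate number as a block it was 256, with 0 of the 46 genes called and C3 at an adjusted p of 0.347. Same-numbered arrays had deviations correlated at 0.05, 0.03, 0.08 and 0.17, and differently numbered ones at −0.30 to 0.21. The same-numbered correlations were not each over 0.1, and not every array correlated best with its own number. The numbers were therefore not taken as pairs. Lrp1 lost its call after subtraction of array medians (0.0648), with the block (0.0697), with all probe sets tested (0.0615) and without each array except normoosmotic replicate 2, while its change lay between 0.50 and 0.67 in all 16 fits (0.57 as reported).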
